A study of Mus musculus with 31 samples.

Results

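Cassette exons that the wild-type mouse cortex mostly leaves out of its messenger RNA were examined in 3 mouse models of Huntington's disease (HD). They were taken from RASL-seq, in which paired oligonucleotides anneal across known exon junctions and are ligated and sequenced. For each event the reads of the skipping junction are its short count and those of an including junction its long count. Exclusion is the percentage of short counts in the sum of both. An event was a member if its type was cassette, if its listed position spanned over 1500 and under 15000 bp, and if its mean exclusion in the wild types was over 80% in every set of files that listed it. The rule was met by 277 of the 1922 events of the series, and by 277 of the 1238 cassette events within those span limits. A pair of these listings repeated the counts of another member in every mouse, which left 275 exons of 256 gene symbols that were each counted once.

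The study asked how alternative splicing differs between HD mouse models and their wild types. RNA came from the cortex of 31 mice with no treatment. In the R6/2 set, 3 HD mice carried the R6/2 transgene, which encodes an exon 1 fragment of mutant human huntingtin, and were compared with 3 wild types (WT), at 3 months of age per the methods. The Q150 set held 4 heterozygotes (HET, Q7/Q150), 4 homozygotes (HOMO, Q150/Q150) and 5 WT mice with 7 glutamines on both huntingtin alleles, at 7 months. The Q175 set held 4 HET mice (Q7/Q175), 3 HOMO mice (Q175/Q175) and the other 5 WT mice, at 18 months. In both knock-in lines the expanded repeat lies in the mouse's own huntingtin gene. The models therefore differ in transgene, age and background strain at once, and these cannot be told apart. Totals ran from 2171709 to 5256516 counts per mouse. In the R6/2 set the WT mice are numbered 3, 4 and 6 and the HD mice 860, 868 and 869, with totals of 2171709 to 3527614 and 3438725 to 4337557 counts, so group, number range and most of the depth cannot be told apart there. The mice of a group were separate animals.

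A cassette exon is spliced in or left out as a unit. The choice depends on the strength of its splice sites and on RNA-binding proteins that promote or block their use, and brain is known for its large number of such exons. When an exon is left out of nearly all transcripts of a gene, the form that includes it is a minor isoform, and in some genes inclusion brings in a premature stop codon and marks the transcript for decay. Most positions in the files did not fall inside the matching genes of GRCm38, so no exon sequence or reading frame was read and positions are given as the files list them.

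The level in the WT mice chose the members, so it is given as a description. The median WT exclusion of the members was 93.3% in the R6/2 set, 93.6% in the Q150 set and 93.9% in the Q175 set, against 41.7%, 40.2% and 41.1% over all events. The lowest exons by their mean over the sets were in Mark3, Zdhhc20 and Fgfr1op2. Mark3, a microtubule affinity-regulating kinase, had WT means of 81.7% in the R6/2 set, 81.1% in the Q150 set and 80.1% in the Q175 set. The highest were in Cadps, a factor of dense-core vesicle release, at 99.8% and 99.9% in the R6/2 and Q175 sets, and in Ppp1r12a and Anapc4, at 99.9% and 99.8% in the Q175 set, which alone of the 3 listed them. The members nearest the limit were Ptprf, Mark3 and Rab40c, whose lowest set means were 80.05%, 80.10% and 80.11%. Events in Il15ra, Mtmr2 and Prdm16 missed it with lowest set means of 79.99%, 79.99% and 79.85%. The median absolute difference in WT level per exon was 0.735 points between the R6/2 and Q150 sets, 0.822 between R6/2 and Q175 and 0.617 between Q150 and Q175, among exons that had to pass the limit in every set. The largest were 8.02 points for Uspl1 (R6/2 and Q150) and 8.19 for Tsc2 (R6/2 and Q175).

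Skipping of nearly all transcripts leaves few counts on the long junction. The median member had a mean long count of 44.3 in the R6/2 set, 54.2 in the Q150 set and 54.9 in the Q175 set, against 193, 230 and 228 over all events. A mean long count under 20 was found in 26.8%, 18.7% and 20.8% of the members and in 9.98%, 7.17% and 8.27% of all events. No listed junction fell under 4 counts in any mouse, so exons whose inclusion fell below that in a mouse may not be listed. Changes were therefore tested on the log2 ratio of short to long counts with limma over all events of a set, and an event with an adjusted p under 0.05 is said to have passed. A change of 1 on this scale is a doubling of the ratio.

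In R6/2 cortex the mostly skipped exons moved both ways, more often towards still higher exclusion. Of the 250 members of that set 59 passed (23.6%), 42 with higher and 17 with lower exclusion, where 28.6% of all 1743 events passed. The split depended on scaling. With each mouse centred on its median event, which lowers all changes by about 0.14, 30 members were higher and 22 lower. Higher exclusion passed in 16.8% of the members against 21.1% of all events, and lower exclusion in 6.80% against 7.46%. The median change was 0.22 over the members and 0.18 over all events, on the log2 scale. These shares lie near the background, and nothing in them is particular to mostly skipped exons. The WT mice of this comparison also took part in choosing the members. When the members were chosen by the WT mice of the other 2 sets alone, 60 of 246 passed.

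**Figure D1:**
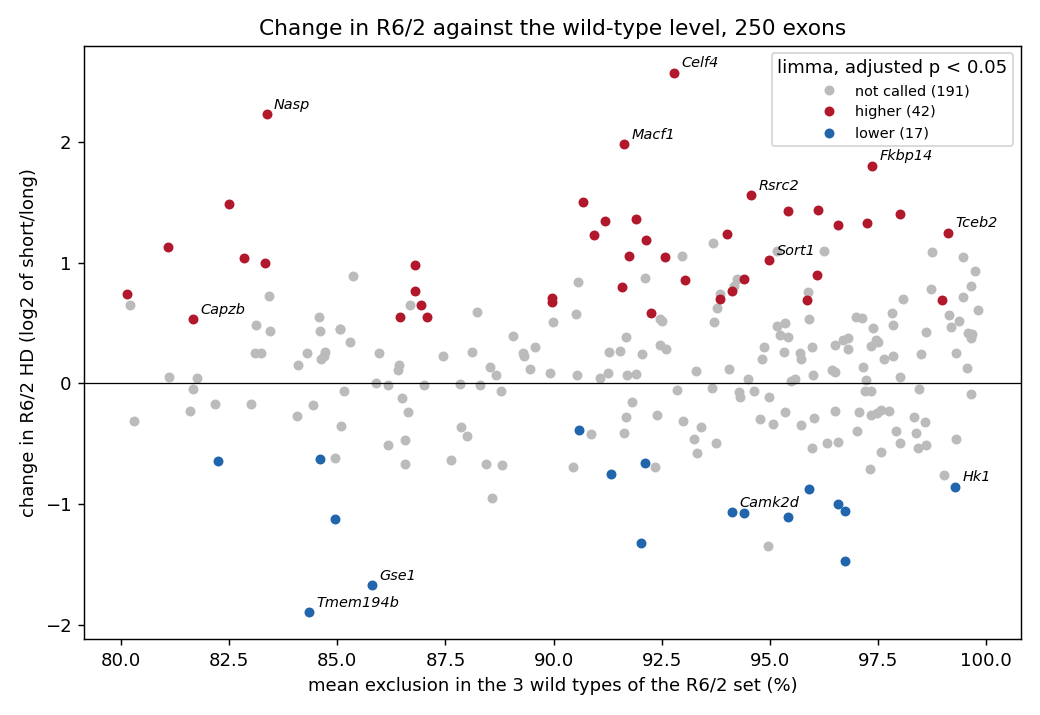
Each point is 1 of the 250 mostly skipped exons of the R6/2 set. The horizontal axis is the mean exclusion in the 3 WT mice (%) and the vertical axis the change in R6/2 HD mice (log2 of the short-to-long ratio). Exons that passed with higher exclusion (42) are red and those with lower exclusion (17) blue, and both occur from the low to the high end of the WT levels, with Celf4 at 2.57 at the top and Tmem194b at -1.89 at the bottom.

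The largest change on the log2 scale among R6/2 members that passed was in Celf4, a neuronal RNA-binding protein that regulates splicing, stability and translation of messenger RNA. Its exon, at chr18:25638212-25645294, had exclusion of 93.5%, 92% and 92.9% in the 3 WT mice and 98.7%, 98.6% and 98.8% in the 3 HD mice. The groups did not overlap, and the change was 2.57 (SE 0.12, limma adjusted p = 2.8e-08). The long junction had 1202 to 1604 counts in the WT mice and 379 to 455 in the HD mice, so this minor isoform was well measured. On the list of RNA-binding and splicing genes 1 of 6 members rose (Celf4), 1 fell (Ccnl1) and 4 did not pass, where 29 of all 54 events of the list passed. The other RNA-processing genes given here were picked by role from members that passed, after their values were seen. Prpf3, a protein of the U4/U6 small nuclear ribonucleoprotein, had exclusion of 91.3%, 92.8% and 91.7% in WT and 97.0%, 97.2% and 95.8% in HD mice (change 1.36, SE 0.21, limma adjusted p = 0.00049). Rsrc2, a protein rich in arginine and serine repeats, rose from 94.6% ± 1.08 (SD, n = 3) to 98.1% ± 0.249 (SD, n = 3), and Upf3b, of the nonsense-mediated decay pathway, from 90.7% ± 1.59 to 96.5% ± 0.632. Both passed in limma, with adjusted p of 0.00059 and 0.0010. Smaller rises that passed were in Fip1l1, a cleavage and polyadenylation factor (0.80), Txnl4a, a protein of the U5 ribonucleoprotein (0.69), and Mett10d (now Mettl16), an RNA methyltransferase (0.67). Exclusion fell in Fubp1, a nucleic acid-binding regulator of transcription and splicing (-0.88), and in Ccnl1, a cyclin linked to splicing (-0.65).

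Further genes with roles in the nucleus were picked the same way, so they say nothing of such genes as a group. Nasp, a histone chaperone, had 82.0%, 83.2% and 84.9% exclusion in WT and 95.4%, 95.1% and 97.1% in HD mice. All HD mice lay above all WT mice, with a change of 2.23 (SE 0.24, adjusted p = 3.3e-05 in limma) or 12.48 points. Gse1, of histone deacetylase co-repressor complexes, went the other way, from 86.5%, 84.2% and 86.7% in WT to 62.6%, 64.8% and 69.2% in HD mice. It fell by 20.3 points, a change of -1.67 (SE 0.14, adjusted p = 3.8e-06 in limma). Tmem194b (now Nemp2), of the nuclear envelope, had 81.0%, 91.5% and 80.5% in WT and 61.2%, 63.9% and 54.7% in HD mice. Its exclusion fell by 24.4 points, the largest difference in points among members that passed in R6/2, on long counts of 6 to 62 (change -1.89, SE 0.39, limma adjusted p = 0.0029). Exclusion also fell in 4631424J17Rik (now Pwwp2a), a chromatin protein (-1.32), Uspl1, a SUMO protease (-1.47), and Trp53bp1, a DNA double-strand break protein (-0.63). It rose in Rpa1, a subunit of the single-strand DNA-binding complex (1.05), Morc2a (1.05), the SUMO protease Senp1 at 1 of its 2 exons (1.31), and the transcription factor Atf2 (0.55). The Senp1 change rested on only 8 to 12 long counts per mouse.

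Of the 20 members on a list of cytoskeleton, motor and adhesion genes, 6 rose, none fell and 14 did not pass in R6/2 mice, with a median change of 0.26, where 28.6% of all events passed. They included Macf1, Epb4.1 (now Epb41), Epb4.1l3 (now Epb41l3), Clasp1 and Enah. Macf1, which links actin filaments to microtubules, had 92.9%, 92.6% and 89.4% exclusion in WT and 97.3%, 97.7% and 98.2% in HD mice (change 1.98, SE 0.23, adjusted p = 5.8e-05 in limma). Epb4.1, a protein of the membrane skeleton, rose from 82.8% ± 0.814 to 90.8% ± 1.09 (SD, n = 3 each). Clasp1, a microtubule plus-end protein, rose by 1.00 and Enah, which promotes actin filament elongation, by 1.19 on the log2 scale. Among genes the list did not hold, Ktn1, which anchors kinesin on the endoplasmic reticulum, fell at 1 of its exons (-1.06). Capzb, a subunit of the actin capping protein and also not on the list, was the most deeply counted exon that passed, with 2316 to 3840 long counts, and went from 81.7% ± 0.590 to 86.5% ± 1.03 (change 0.53, SE 0.09, limma adjusted p = 0.00091). Over all events of the listed cytoskeletal genes, 32 of 88 passed in this comparison, and with mice centred the same 6 members rose and none fell.

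Signalling and membrane genes were split. On the list of kinases, phosphatases and small GTPase genes 1 of 7 rose, Dock9, a guanine nucleotide exchange factor (0.90), and 2 fell, Camk2d and Wnk1, where 18 of all 56 events of the list passed. Camk2d, the delta chain of calcium/calmodulin-dependent kinase II, had 93.7%, 93.2% and 95.4% exclusion in WT and 86.9%, 89.5% and 88.9% in HD mice (change -1.06, SE 0.23, limma adjusted p = 0.0049). The counts of its short and of its long junction also stand in other listed Camk2d events. Sort1, the sorting receptor sortilin, had 95.6%, 94.6% and 94.8% in WT and 97.6%, 97.2% and 97.6% in HD mice (change 1.02, SE 0.14, limma adjusted p = 0.00015). Tceb2 (now Elob), elongin B, changed by 0.503 points only, from 99.1% to 99.6%, which on the ratio scale was 1.25 (SE 0.16, limma adjusted p = 0.00013). Hk1, hexokinase, fell from 99.3% to 98.7% (-0.85).

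Some other large changes rested on few counts or on single mice. Fkbp14, a peptidyl-prolyl isomerase of the endoplasmic reticulum, had 98%, 96% and 98.1% in WT and 99.3%, 99% and 99.4% in HD mice, on long counts of only 6 to 10 (change 1.80, SE 0.44, limma adjusted p = 0.0087). Rab40c had 89.4%, 81.2% and 84.2% in WT and 70.1%, 72.0% and 74.7% in HD mice, which fell by 12.7 points on long counts of 9 to 30 (limma adjusted p = 0.032). It lost its call without any 1 of 5 of the 6 mice, WT mice 3 and 6 and HD mice 860, 868 and 869, with limma adjusted p up to 0.110. Iqsec3, an ARF exchange factor of inhibitory synapses, had 96.5%, 96.9% and 96.3% in WT and 94.6%, 92.1% and 93.1% in HD mice (-0.998, limma adjusted p = 0.014), and 0.063 without HD mouse 868. Rcbtb2 rested on neither few counts nor a single mouse. It had 76.1%, 85.5% and 85.9% in WT and 92.8%, 94.1% and 92.5% in HD mice (change 1.48), on 55 to 145 long counts, and passed without each mouse in turn.

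The exons with the narrowest intervals among those that did not pass were in Morf4l1, Kif21a and the noncoding RNA Meg3. The 95% interval of the R6/2 change ran from 0.06 to 0.46 for Morf4l1, from -0.16 to 0.26 for the Kif21a exon at chr15:90803146-90811225, and from 0.01 to 0.45 for Meg3. In Morf4l1 and Meg3 all HD mice lay above all WT mice in exclusion. Their intervals held only rises, so they fell short only after adjustment. The intervals all end below the estimated change of Capzb, but no difference from Capzb was tested.

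The junctions behind the ratios were compared as counts scaled to the total of each mouse (CPM). In all 42 members that rose in R6/2 the long junction was lower in HD than in WT mice, with a median log2 CPM change of -0.73, while the short junction changed by a median of 0.31. In all 17 that fell the long junction was higher, by a median of 0.77, and the short junction changed by -0.15. The long junction moved more than the short one in 28 of the 42 and 13 of the 17. It also did so in 111 of the 191 members that did not pass, so this is not particular to the changed exons. Celf4 lost 2.18 on the log2 CPM scale at its long junction and gained 0.39 at its short one. Sort1 was lower at both, by -1.72 and -0.70. In Clasp1 and Asb7 the short junction carried the change, with gains of 0.96 and 0.76 beside long-junction changes of -0.04 and -0.01.

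**Figure D2:**
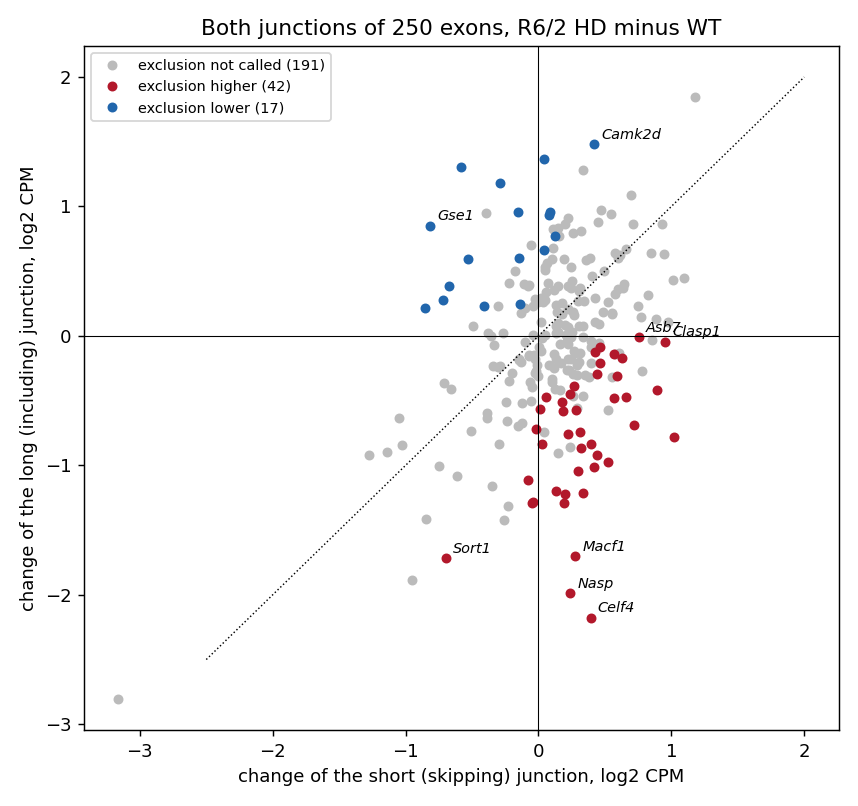
Each point is 1 of the 250 mostly skipped exons, with the change of the short junction on the horizontal axis and of the long junction on the vertical axis, both as log2 CPM in R6/2 HD minus WT mice. The dotted line marks equal changes of both junctions. Exons with higher exclusion in HD (red, 42) lie below zero on the vertical axis and those with lower exclusion (blue, 17) above it.

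Markers of cell types were checked through the listed events of their genes. In the R6/2 set the summed level of 5 listed neuronal markers of 10 ran from 7249 to 8212 CPM in WT and from 5824 to 6066 CPM in HD mice. That of the single listed astrocyte marker of 6, Ndrg2, ran from 17167 to 18102 CPM and from 8831 to 9939 CPM, and that of 3 listed oligodendrocyte markers of 10 from 11686 to 14152 CPM and from 9805 to 13888 CPM. None of 6 microglial markers was listed. In the Q150 set the neuronal sum ran from 7159 to 8899 CPM in WT and from 6476 to 7257 CPM in HOMO mice, and Ndrg2 from 11700 to 16603 CPM and from 9067 to 14273 CPM, with overlap in both. In the Q175 set the neuronal sum ran from 7945 to 8697 CPM in WT and from 7206 to 7813 CPM in HOMO mice, and Ndrg2 from 13280 to 16636 CPM and from 9679 to 11665 CPM, without overlap in either. Fewer cells of a type and less RNA per cell cannot be told apart in whole cortex, and the part of these shifts in the exon changes was not tested.

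In Q150 HOMO cortex 53 of 251 members passed (21.1%), 39 with higher and 14 with lower exclusion. The background was 23.9% of all 1785 events, and 19.8% for higher and 4.09% for lower exclusion, against 15.5% and 5.58% of the members. The median change was 0.07 over the members and 0.19 over all events. This direction turned with scaling. With each mouse centred, which lowers all changes by about 0.20, 17 members were higher and 33 lower and their median was -0.13. Without Q150 HOMO replicate 1 the count was 31. The mouse numbers of this set fell into a low and a high series, with mice of every group in each, and all 53 changes had the same direction within the low and within the high series. They had passed over these same mice, and of the 198 members that did not pass 82.8% and 81.8% also kept their direction within the low and high series. With the series as a block the count was 68.

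Nasp showed the largest change of the Q150 homozygotes. Its exclusion was 85.7%, 81.8%, 85.3%, 87.6% and 87.6% in the WT mice, 87.5%, 90.1%, 90.4% and 91.0% in HET mice, and 95.6%, 95.4%, 95.4% and 94.1% in HOMO mice. The HOMO mice lay above all others (change against WT 1.70, SE 0.18, limma adjusted p = 4.3e-07), while the HET change of 0.55 did not pass (limma adjusted p = 0.086). The other rises named by size were in Fkbp14 (1.51, SE 0.38, on 4 to 20 long counts in the set), in 6030446N20Rik (now Tmem241) at chr18:12222748-12225568 (1.24, SE 0.22), and in Rhot1, a GTPase of the outer mitochondrial membrane (1.23, SE 0.34). Rhot1 had a WT exclusion of 99.5% ± 0.243 (SD, n = 5) and a HOMO exclusion of 99.8% ± 0.0428 (SD, n = 4), on long counts of 4 to 32. The largest falls were in Tmem194b (-1.14, SE 0.32) and Iqsec3 (-1.04, SE 0.22). Tmem194b had 81.4%, 91.5%, 84.8%, 88.7% and 79.4% in WT and 79.2%, 59.0%, 73.1% and 77.6% in HOMO mice, and without HOMO replicate 2 its limma adjusted p was 0.072.

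Of the cytoskeletal list 4 of 20 members were higher (among them Ablim1, Clasp1 and Macf1) and 1 lower (Kif21a), although with mice centred only Macf1 was higher and 3 were lower, Kif21a, Mtap2 and Myo5a. Over all events of that list 28 of 92 passed. Macf1 rose from 90.9% ± 1.69 (SD, n = 5) to 95.1% ± 0.997 (SD, n = 4), and the Kif21a exon, of a kinesin, fell from 82.7% ± 0.733 to 80.4% ± 0.553 on 2479 to 5138 long counts. Of the channel and receptor list 1 of 7 fell, Kcnd3, a potassium channel subunit (-0.70). Of the kinase and phosphatase list 1 of 7 fell, Wnk1 (-0.55), and of the RNA-binding list 1 of 6 rose, Celf4. Over all their events 19 of 57, 19 of 58 and 20 of 54 passed. With mice centred Gria2, Camk2d, Mark3 and Sfrs3 of these lists were lower as well. Celf4 went from 92.9% ± 0.910 (SD, n = 5) to 95.4% ± 0.257 (SD, n = 4), a change of 0.67 (SE 0.12, limma adjusted p = 0.00024). Gse1 had 82.9%, 82.9%, 85.4%, 88.1% and 87.8% in WT and 75.6%, 73.7%, 81.8% and 77.4% in HOMO mice, all below WT (-0.80, SE 0.15, limma adjusted p = 0.00054). Mitochondrial Opa1 rose by 0.40 and Mgrn1, a ubiquitin ligase, fell by 0.55 on the log2 scale.

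In Q150 HET cortex 4 of 251 members passed, 1.59% against a background of 3.47% of all events. Higher exclusion passed in 2 (background 3.03%) and lower in 2 (background 0.448%), and with mice centred none was higher and 5 were lower. The count was 13 with the series as a block, 14 with all 10 knock-in WT mice, 7 with only these 2 groups in the fit and 1 without the variance trend. An unadjusted p under 0.05 was found for 44 members (17.5%, against 18.1% of all events). Ttc3, a ubiquitin ligase, had 90.7% to 91.7% (median 91.1%) in the 5 WT mice and 93.6%, 93.6%, 95.2% and 92.9% in the HET mice (0.59, limma adjusted p = 0.023), without overlap. Sort1 had 93.8% to 95.2% (median 94.6%) in WT and 96.5%, 96.2%, 95.7% and 96.3% in HET mice (0.53, limma adjusted p = 0.023), also without overlap. Il34, a ligand of the receptor that maintains microglia, fell from 97.0% ± 0.706 to 93.9% ± 0.791 on 6 to 18 long counts (-1.05, limma adjusted p = 0.047), and Iqsec3 fell by 0.83 (limma adjusted p = 0.040). Leaving out single mice ended these calls in 5 of 9 cases for Ttc3 (WT 1 and 4, HET 1, 2 and 3), 4 of 9 for Sort1 (WT 3 and 5, HET 1 and 2), 8 of 9 for Iqsec3 (all but WT 3) and 9 of 9 for Il34, with limma adjusted p up to 0.092, 0.086, 0.119 and 0.115. The HET and HOMO comparisons share their WT mice. In the HOMO mice the change of Ttc3 was 0.68, that of Sort1 0.88, that of Iqsec3 -1.04 and that of Il34 -0.78, of which Il34 did not pass (limma adjusted p = 0.057).

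Between Q150 HOMO and HET mice, a comparison in which no mouse chose the members, 3 of 251 passed (1.20%), all with higher exclusion in HOMO mice, where the background was 2.18% in all, 1.9% for higher and 0.28% for lower exclusion. With the series as a block 6 passed, and with mice centred 1. They were Rhot1 (1.51), Nasp (1.15) and Tmem241 (0.99). Nasp had an adjusted p of 0.0013 in limma and its groups did not overlap, with 5.37 points between them. Rhot1 and Tmem241 (limma adjusted p = 0.025 each) lost their calls without 5 and 4 of the 8 mice in turn, with limma adjusted p up to 0.102 and 0.106. For Rhot1 these were HET 1, 2 and 3 and HOMO 1 and 4, and for Tmem241 HET 1 and 2 and HOMO 1 and 2. An unadjusted p under 0.05 was found for 27 members (10.8%, against 14.1% of all events).

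In Q175 HOMO cortex 14 of 259 members passed, 5.41% against a background of 7.07% of all 1839 events. Higher exclusion passed in 11 and lower in 3, or 4.25% and 1.16% of the members against 5.6% and 1.47% of all events, and with mice centred 9 were higher and 3 lower. Without WT replicate 9, HOMO replicate 2 or HOMO replicate 3 the count was 9. All 3 HOMO mice came from the high series of mouse numbers, which held 2 of the 5 WT mice. All 14 changes kept their direction against those 2, as did 83.7% of the 245 members that did not pass, and with the series as a block 8 members passed. Without the variance trend 4 passed.

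Celf4 gave the lowest adjusted p of the Q175 homozygotes. Its exclusion was 94.3%, 94.7%, 94.6%, 94.5% and 94.3% in WT, 95%, 94.5%, 94.5% and 95.1% in HET and 96.6%, 96.0% and 96.5% in HOMO mice, and the HOMO mice lay above all others (0.64, SE 0.09, limma adjusted p = 2.7e-06). Camk2d fell from 96.1%, 94.7%, 96.3%, 96.0% and 95.9% in WT to 91.8%, 89.4% and 88.5% in HOMO mice, the largest fall here (-1.33, SE 0.23, limma adjusted p = 0.00015), and its long junction was higher by 1.45 on the log2 CPM scale. Prpf3 rose from 92.2% ± 1.05 to 95.2% ± 0.715 (0.74), Commd8 from 95.5% ± 0.355 to 97.5% ± 0.186 (0.86), and Fbf1, a protein of the centriole's distal appendages, from 95.5% ± 0.729 to 97.6% ± 0.750 (0.97, SD, n = 5 and 3). Rhot1 had a change of 1.33 (limma adjusted p = 0.030) on 7 to 28 long counts. It lost its call without 6 of the 8 mice in turn, WT 6, 8, 9 and 10 and HOMO 1 and 3 (limma adjusted p up to 0.165). The Rhot1 call was also lost with the series as a block, with all 10 knock-in WT mice and without the variance trend. Fbf1 lost its call without HOMO replicate 2 (limma adjusted p = 0.074). On the gene lists 2 of 21 cytoskeletal members rose (Epb4.1 and Macf1) and 1 fell (Kif21a), 1 of 8 kinase and phosphatase members fell (Camk2d), and 1 of 6 RNA-binding members rose (Celf4). Of the channel and receptor list 1 of 7 rose. It was Gria2, an AMPA receptor subunit (0.44), which did not pass with mice centred. Over all events of these lists 13 of 90, 7 of 59, 9 of 55 and 7 of 57 passed, in the order given.

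In Q175 HET cortex 1 of 259 members passed (0.386% against a background of 0.598% in all, 0.381% for higher and 0.218% for lower exclusion). It was Slc4a4, a sodium bicarbonate cotransporter of astrocytes, whose 5 WT mice had 92.2% ± 1.13 and whose 4 HET mice had 89.8% ± 0.849 (SD), with overlap (-0.44, limma adjusted p = 0.045). An unadjusted p under 0.05 was found for 25 members (9.65%, against 10.8% of all events). The single call was absent without 7 of the 9 mice in turn, WT 6, 8, 9 and 10 and HET 2, 3 and 4. Between Q175 HOMO and HET mice 1 of 259 passed (0.386%, background 0.816% in all, 0.761% for higher and 0.0544% for lower exclusion), Celf4, with 1.60 points between groups that did not overlap (0.55, SE 0.09, limma adjusted p = 0.00020). The HET mice were all of the low series and the HOMO mice all of the high series. An unadjusted p under 0.05 was found for 20 members (7.72%, against 10.9% of all events). With the series as a block, set by the WT mice, the adjusted p of Celf4 in limma was 0.094.

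**Figure D3:**
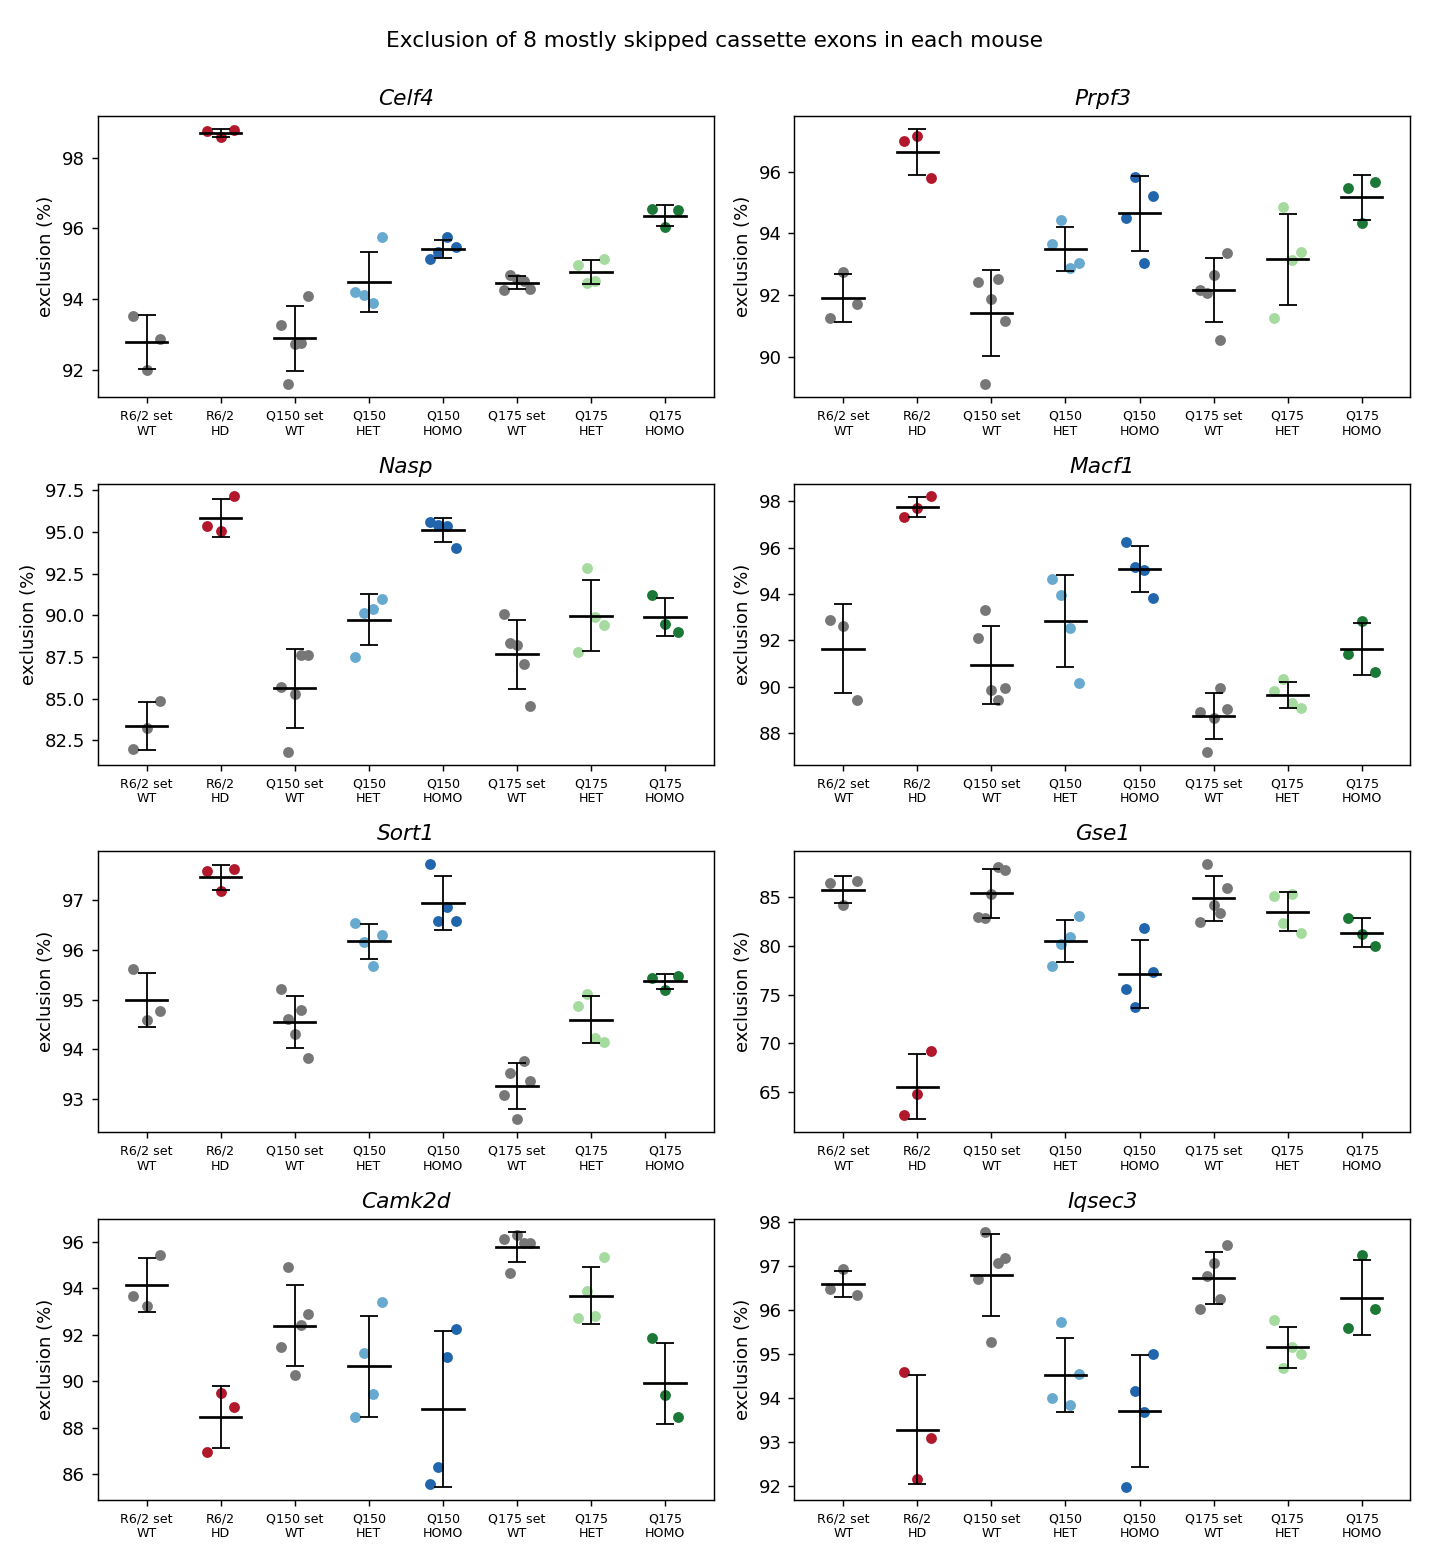
Exclusion (%) of 8 named exons, 1 panel per gene, with 1 point per mouse for the WT and mutant groups of the 3 sets. Thick lines are group means and bars the SD (n = 3 to 5), and each panel has its own vertical scale, which does not start at 0. R6/2 HD mice lie above their WT mice in Celf4, Prpf3, Nasp, Macf1 and Sort1 and below them in Gse1, Camk2d and Iqsec3.

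Calls in the 3 models were set side by side, since R6/2 HD, Q150 HOMO and Q175 HOMO mice had separate WT mice. Of 237 members listed in both the R6/2 and Q150 sets, 27 passed in both, all in the same direction, which was 46.6% of the R6/2 calls and 54.0% of the Q150 HOMO calls. Over all events these shares were 49.7% and 59.0%. Of 240 in the R6/2 and Q175 sets 8 passed in both, again in the same direction, 13.8% of the R6/2 and 61.5% of the Q175 HOMO calls, against 20% and 77.3% over all events. Of 243 in the Q150 and Q175 sets 8 passed in both homozygotes, in the same direction, 15.1% and 57.1% of the calls, against 19.3% and 62.8% over all events. Over all events 240 of 245, 98 of 99 and 81 of 81 shared calls had the same direction, in that order of pairs. Shared direction is thus not particular to mostly skipped exons. Across the members the changes had a Pearson r of 0.61 for R6/2 and Q150 HOMO, 0.48 for R6/2 and Q175 HOMO and 0.41 for Q150 and Q175 HOMO. This describes exons that share genes and libraries, and the exons are not replicates.

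**Figure D4:**
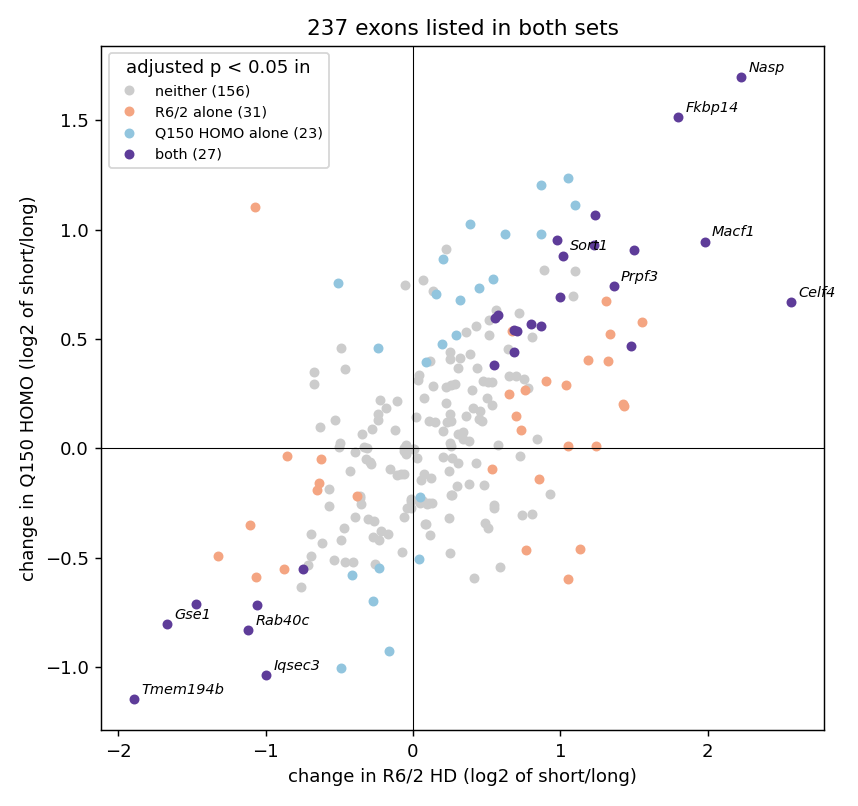
Each point is 1 of 237 mostly skipped exons listed in both sets, with the change in R6/2 HD mice on the horizontal and in Q150 HOMO mice on the vertical axis (log2 of the short-to-long ratio, each against its own WT mice). The 27 exons that passed in both (purple) lie in the lower left or upper right corner, from Tmem194b to Nasp.

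Of the 235 members listed in all sets, 5 passed with higher exclusion in the R6/2 mice and both homozygotes and none passed with lower exclusion in all, which made 2.13% against 4.09% of the 1662 events listed in all sets. They were Prpf3, Celf4, Sort1, Fbf1 and Macf1. Prpf3 changed by 1.36, 0.74 and 0.74 in the same order of models, Sort1 by 1.02, 0.88 and 0.57, and Fbf1 by 0.87, 0.56 and 0.97. Fbf1 had adjusted p-values of 0.020, 0.020 and 0.0038 in limma. Its R6/2 call was lost without WT mouse 3, WT mouse 6 or HD mouse 869 (limma adjusted p up to 0.093) and its Q150 call without HOMO replicate 1 or 2 (up to 0.058). With mice centred Fbf1 did not pass in R6/2 (0.056) or Q150 HOMO mice (0.131, limma adjusted p), and in Q175 HOMO mice it did not pass with the series as a block (0.069) or without the variance trend (0.053). Prpf3 did not pass in Q175 HOMO mice without the trend (limma adjusted p = 0.059). Macf1 in Q175 HOMO mice had a change of 0.48 (limma adjusted p = 0.015), which was 0.157 without HOMO replicate 2, 0.215 with the series as a block and 0.307 with all 10 knock-in WT mice.

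The size of the change was compared between models by the difference of the 2 changes. Celf4 rose more in R6/2 than in Q150 HOMO mice, by 1.90 (SE 0.18, limma adjusted p = 1.3e-07), and more than in Q175 HOMO mice, by 1.93 (SE 0.14, limma adjusted p = 1.3e-11). Macf1 rose more in R6/2 than in either line, by 1.03 and 1.502 (limma adjusted p = 0.048 and 4.3e-05), and Gse1 fell more, by 0.87 and 1.29 (limma adjusted p = 0.023 and 4.6e-05). For Nasp the R6/2 and Q150 HOMO changes differed by 0.53, with a 95% interval from -0.07 to 1.13, while the Q150 HOMO change was 1.38 above that of Q175 HOMO mice (SE 0.26, limma adjusted p = 0.0026). Sort1 had differences of 0.14 (95% interval from -0.27 to 0.55) and 0.45 (from 0.13 to 0.76, limma adjusted p = 0.054) between R6/2 and the Q150 and Q175 homozygotes. For Camk2d the difference between R6/2 and Q175 HOMO was 0.27 (95% interval from -0.40 to 0.94). In all, 14 of 237 members passed this test between R6/2 and Q150 HOMO (5.91%, against 6.96% of all events), 21 of 240 between R6/2 and Q175 HOMO (8.75% against 12.97%) and 3 of 243 between the 2 homozygotes (1.23% against 3.41%).

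Several genes held more than 1 mostly skipped exon, 19 genes with 38 exons in all. In Cask, a scaffold of synapses, the exon at chrX:13126487-13129498 rose in R6/2 mice by 0.70 (limma adjusted p = 0.013) and in Q150 HOMO mice by 0.54 (limma adjusted p = 0.024). The overlapping position chrX:13128108-13132003 had changes of -0.23 (95% interval from -1.26 to 0.80) and -0.42 (from -1.18 to 0.34), on 5 to 38 long counts. In Ktn1 the exon at chr14:48345984-48350014 fell in R6/2 (-1.06) and Q150 HOMO mice (-0.71), and the next one, at chr14:48352997-48355774, had values of 0.42 and -0.59 with intervals that held 0. Plcb4, a phospholipase C, fell at chr2:135787555-135792760 in R6/2 mice (-0.38, limma adjusted p = 0.044) and had a value of -0.06 at its other exon. Gtf2i, Add1 and, in the Q175 set, Mfn2 had a pair of events at the same listed position with the same short counts, so their members are not separate measurements of skipping. Both Myo5a, both Lrrfip1, both Syne1, both Ralgps2, both Gtf2i and both Add1 events passed in none of the 3 comparisons of R6/2 HD and homozygous mice with WT. Uspl1 fell at its wider position, chr5:149996382-149999920, in R6/2 (-1.47) and Q150 HOMO mice (-0.71). At the narrower position that starts at the same base the changes were -0.67 and 0.35, which did not pass. The short counts at the narrower position are the long counts at the wider one in every mouse, so these ratios share a junction. The short counts of Ttc3 and Rhot1 likewise serve as the long counts of another listed event of the same gene. The 2 listings of symbol Macf are kept apart from Macf1, as the symbol had no current match. Their positions lie on chromosome 4, as does the Macf1 exon at chr4:123029194-123032298, and whether they belong to Macf1 was not tested. At chr4:123118034-123122077 exclusion was 96.0% to 98.2% in WT and 96.2% to 98.5% in R6/2 HD mice, on 8 to 27 long counts. At chr4:123073240-123074990 exclusion rose in R6/2 by 0.86 (limma adjusted p = 0.00036) and the Q150 HOMO change was -0.14, a difference of 1.00 that itself passed (limma adjusted p = 0.0046).

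On the percentage scale the members lie near the upper end by the rule that chose them, so their differences in points are a description and cannot be set against those of all events. In the R6/2 set their mean was 92.2% ± 0.245 over the WT mice and 92.5% ± 0.353 over the HD mice (SD, n = 3 each), a difference of 0.265 points with overlapping mice. It ran from 0.114 to 0.459 points with 1 mouse left out, and the level of the middle member within each mouse differed by 1.01 points between the groups, which is not the difference of a typical exon. In Q150 HOMO mice it was 0.255 points above WT, from 92.3% ± 0.0993 (SD, n = 5) to 92.5% ± 0.213 (SD, n = 4). In Q175 HOMO mice it was 0.162 points above WT, from 92.6% ± 0.207 (SD, n = 5) to 92.7% ± 0.217 (SD, n = 3), and 0.0442 points above it without HOMO replicate 1. The HET means differed from WT by 0.101 points in the Q150 and by -0.017 points in the Q175 set. The group mean was under 80% for 11 exons in R6/2 HD mice, 6 in Q150 HET, 11 in Q150 HOMO, 4 in Q175 HET and 3 in Q175 HOMO mice, and for no exon in WT mice by the rule.

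The shares that passed were set beside those of cassette exons of the same span at other WT levels. In R6/2 mice it was 23.6% of the members, 29.9% of 432 exons in balanced use and 32.8% of 357 mostly included exons. In the Q150 homozygotes it was 21.1%, 25.1% and 29.0%, and in those of Q175 5.41%, 7.00% and 7.27%. Between Q150 HOMO and HET mice the order differed, with 1.20% of the members and 1.13% of the balanced exons. These shares were not tested against each other, and the classes differ in counts. Among the members the share that passed in R6/2 mice was 10.4% of 67 with a mean long count under 20, 23.0% of 122 with 20 to 100, and 39.3% of 61 with at least 100. Their median SE fell across these bins from 0.40 to 0.26 and 0.16.

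**Figure D5:**
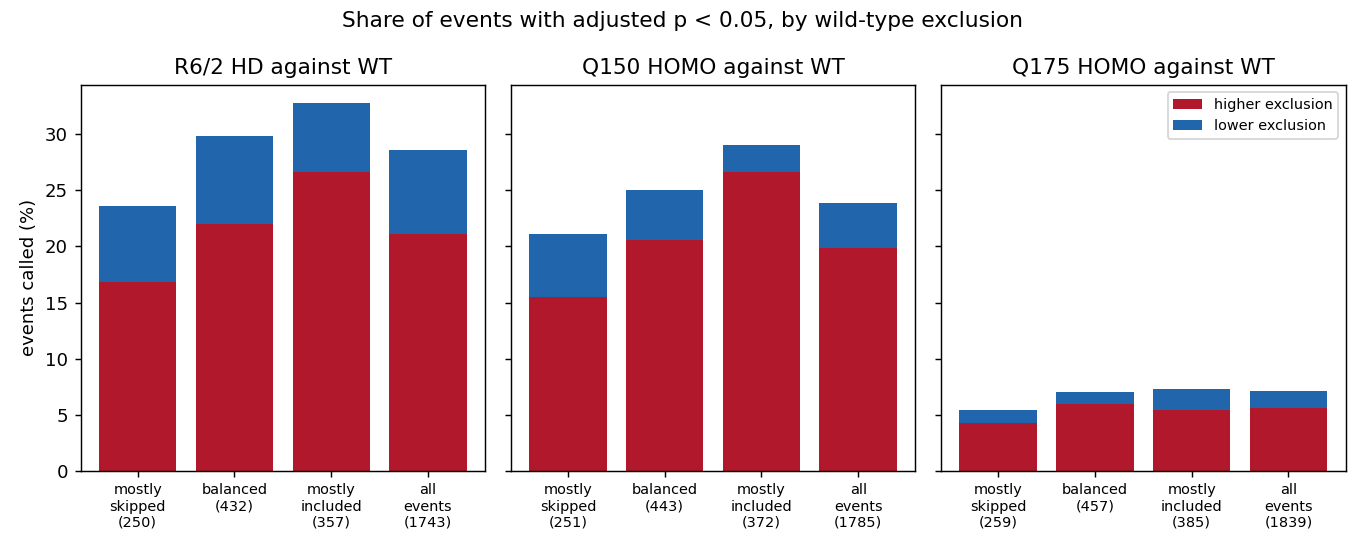
Bars give the share of events that passed (%, from 0) with higher (red) and lower (blue) exclusion in R6/2 HD mice and both homozygotes against WT, for cassette exons mostly skipped, in balanced use and mostly included in WT and for all events, with the number of events below each bar. Mostly skipped exons have the lowest bar in all 3 panels, at 23.6%, 21.1% and 5.41%.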

How the data were processed

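The authors prepared cortical RNA for RASL-seq (oligo(dT) selection, ligation, PCR without stated molecular identifiers), so PCR copies count as reads and all errors are those between mice. The deposited values, recorded as unit other, are whole short and long junction counts per event with comma digit separators, which were removed. Those commas failed a check for plain counts, so count models were not used. The labels name mm10 with no role, but only 261 of 1872 events (13.9%) lay inside their gene on GRCm38, so no annotation or sequence was read by position. All knock-in titles say Q150 and all mutant knock-in genotype fields open with Q175, so the line was taken from the glutamine numbers of each allele. For 1 Q175 HET mouse, title and file give different numbers. The methods give other numbers of homozygotes than the labels, which were followed.

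The ratio log2((short + 0.5)/(long + 0.5)) of every event was fitted by limma (3.58.1, R 4.3.3) over all mice of a set, with variances trended on counts and Benjamini-Hochberg adjustment over all events (adjusted p under 0.05). A pseudocount understates changes of low counts. CPM scales a count to all short and long counts of its mouse. Balanced exons had WT exclusion between 20% and 80% in every set, and mostly included ones under 20%. Tests were tried on simulated data. Replicates of the knock-in groups are numbered in order and pair nothing.

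The members and gene lists were chosen with earlier results of these data known. Named exons are, per comparison with WT, the largest changes that passed without overlap of mice (up to 8 for R6/2, 6 for each HOMO and 3 for each HET group), up to 10 that passed in all 3 models, up to 3 for HOMO against HET, the 3 lowest and highest WT levels, the 3 nearest outside the limit, the 3 narrowest intervals, genes with several members, and the 5 largest R6/2 differences in points. Members of the lists that passed and other exons named by role were chosen after their values were seen. Current symbols come from RefSeq for GRCm38, with 269 of 277 matched. Alternatives were a count minimum of 50, pseudocount 1, no trend, centring of mice, only the groups compared, each mouse left out, the series as a block, all knock-in WT mice, members chosen by other WT mice, a limit of 90%, and, added after seeing the data, repeated listings counted. Results of some genes are not reported here. Figures were drawn with matplotlib 3.10.9.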

Additional observations from a re-analysis of the deposited data

Results flagged for a closer look

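Among 98 groups of 4 or 5 mice tested for a mouse far from the rest in the 20 exons named by change, 4 held one, where chance gives about 1 in 20. Q150 HET replicate 4 had 95.8% Celf4 exclusion, above the other HET mice at 93.9% to 94.2%. It was the only Q150 HET mouse of the high series of mouse numbers. Q150 HOMO replicate 4 had 94.1% for Nasp, below the others at 95.4% to 95.6%. In the Q175 set, WT replicate 6 had 97.4% for Rsrc2, above 96.5% to 96.6%, and WT replicate 7 had 94.7% for Camk2d, below 95.9% to 96.3%.

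The change differed between models by the limma test of the difference itself in 8 of these exons (adjusted p under 0.05). Between R6/2 HD and Q150 HOMO mice the difference of log2 changes was 1.90 for Celf4, 1.03 for Macf1, -0.87 for Gse1 and 1.02 for Rcbtb2. Between R6/2 HD and Q175 HOMO mice it was 1.93 for Celf4, 1.91 for Nasp, 1.502 for Macf1, 1.77 for Fkbp14, -1.29 for Gse1, 1.20 for Rsrc2, 1.25 for Upf3b and 1.06 for Rcbtb2. Between Q150 and Q175 HOMO mice it was 1.38 for Nasp. The lines differ in age, strain and transgene, which cannot be told apart here.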

How the results depend on the processing

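No paired analysis was possible because the mice of the groups compared share no number in the labels. Of 48 calls of exons named by change, 28 held under every alternative tried, 20 were lost under at least 1 and 0 reversed. The cause was not tested, except where fewer exons or mice enter by construction. A limit of 90% left 37 calls in R6/2 and 32 in Q150 HOMO mice, among 159 and 164 exons. Without the variance trend the counts were 1 (Q150 HET), 4 (Q175 HOMO), 0 (Q175 HET) and 0 (Q175 HOMO against HET). With the series as a block they were 13 (Q150 HET), 6 (Q150 HOMO against HET), 0 (Q175 HET), 8 (Q175 HOMO) and 0 (Q175 HOMO against HET). With all 10 knock-in WT mice Q150 HET had 14 and Q175 HET 0. Q150 HET had 7 with only the 2 groups compared, Q150 HOMO against HET had 1 with mice centred, and Q175 HET had 3 with members chosen by other WT mice. With 1 mouse left out the counts ran from 42 to 55 (R6/2), 0 to 3 (Q150 HET), 31 to 49 (Q150 HOMO), 1 to 3 (Q150 HOMO against HET), 0 to 1 (Q175 HET), 9 to 13 (Q175 HOMO) and 1 to 2 (Q175 HOMO against HET).

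The differences in mean exclusion ran from 0.114 to 0.459 points (R6/2), 0.0667 to 0.196 (Q150 HET), 0.212 to 0.361 (Q150 HOMO), -0.112 to 0.0619 (Q175 HET) and 0.0442 to 0.257 (Q175 HOMO) with 1 mouse left out. Between per-mouse medians over the members, in place of means, they were 1.01, 0.356, 0.648, 0.212 and 0.4657 points in that order, and as the share of summed counts 0.670 in R6/2 and 0.0982 in Q175 HET mice. The Q175 HET difference, -0.017, changed sign in these, with members chosen by other WT mice (0.0221), and without HET replicate 1 (0.0619), HET replicate 3 (0.00968) or WT replicate 8 (0.0587). Mean long counts were under 20 in 18.7% to 26.8% of the members by set.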
